A study of Mus musculus with 6 samples.

Results

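Chrdl1, which encodes chordin-like 1, a secreted protein that binds bone morphogenetic proteins (BMPs), was 4.45-fold lower in adipocytes carrying an shRNA against Rbms1 than in adipocytes carrying a scrambled shRNA. It is described here with 8 further genes whose products are BMP ligands, antagonists and modulators. These are Bmp2 and Bmp4 (ligands), Bmp1 (a proteinase), Grem1, Bmper, Fst and Fstl1 (secreted binding proteins) and Bambi (a membrane pseudoreceptor). The 9 genes were chosen by name from the 45706 genes of the count table because Chrdl1 had fallen most consistently in the knockdown. The levels of Chrdl1 and its companions in these samples were therefore known when they were listed, and their differences between the groups are given as descriptions, without a test. Of the 9 genes, 6 passed the filter on low counts and 3 (Bmp2, Bmp4 and Bambi) did not.

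The samples were 3T3-L1 cells, a mouse embryo fibroblast line that turns into fat-storing adipocytes under hormonal induction. All 6 cultures were given IBMX, insulin, dexamethasone and rosiglitazone and were harvested on day 7. The 3 scrambled control samples (genotype WT in the labels) carried a scrambled short hairpin RNA (shRNA). The 3 RBMS1 knockdown samples (RBMS1KD) carried an shRNA against Rbms1, an RNA-binding protein gene, introduced by lentivirus and kept by puromycin selection, so the knockdown samples derive from cells transduced before differentiation. The study's methods call the 3 samples of each group biological replicates. Whether they came from separate transductions is not given in the sources used here, and the spread between them may therefore be partly technical.

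BMPs are secreted dimers that bring together type I and type II serine/threonine kinase receptors, which phosphorylate SMAD1, SMAD5 and SMAD9. These SMADs enter the nucleus with SMAD4 and switch on targets such as the Id genes. Outside the cell, chordin family proteins, noggin, gremlins and follistatins bind the ligands and keep them from the receptors, and the tolloid proteinases, of which BMP1 is one, cut chordin and release the ligand. In the adipose lineage BMP2 and BMP4 are known for promoting the commitment of mesenchymal precursors to preadipocytes.

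Chordin family proteins bind BMPs through cysteine-rich chordin repeats, and these stretches are shown because they are what sets Chrdl1 and Bmper apart from the other listed genes. The principal transcript of each gene in a GRCm38 annotation (GENCODE M21) was translated and searched for Cys-X-X-Cys-X-Cys, then 4 to 40 residues, then Cys-Cys-X-X-Cys, where X is any residue. Chrdl1 (transcript Chrdl1-202, 333 residues) held 3 such stretches and Bmper (transcript Bmper-201, 685 residues) held 4. Bmp1, Bmp2, Bmp4, Grem1, Fst, Fstl1 and Bambi held 0. The pattern was found in 70 of 21782 protein-coding genes (0.321%). Each coding stretch is printed 5′ to 3′ on the strand of the gene, without introns, with the codons of the pattern's 6 cysteines in capitals. The 3 Chrdl1 stretches lie on the minus strand of chromosome X, at 143365901 to 143368375 (exons 3 and 4), 143325993 to 143327942 (exons 5 and 6) and 143299873 to 143299986 (exon 9). The Bmper stretch, the most amino-terminal of its 4, lies on the plus strand of chromosome 9 at 23224823 to 23254467 (exons 2 and 3).
Chrdl1 repeat 1, residues 57 to 94: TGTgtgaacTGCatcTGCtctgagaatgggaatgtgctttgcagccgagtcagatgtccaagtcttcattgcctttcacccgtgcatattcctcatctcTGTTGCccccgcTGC
Chrdl1 repeat 2, residues 137 to 173: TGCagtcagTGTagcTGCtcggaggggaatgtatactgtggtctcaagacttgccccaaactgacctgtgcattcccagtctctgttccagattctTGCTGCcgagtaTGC
Chrdl1 repeat 3, residues 280 to 317: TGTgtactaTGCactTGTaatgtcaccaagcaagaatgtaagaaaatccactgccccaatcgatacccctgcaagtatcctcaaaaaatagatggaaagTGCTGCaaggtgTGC
Bmper repeat 1, residues 67 to 105: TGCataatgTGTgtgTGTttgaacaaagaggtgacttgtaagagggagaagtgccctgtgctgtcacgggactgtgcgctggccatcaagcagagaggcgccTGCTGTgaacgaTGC

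Total estimated counts per sample ranged from 3142695 in scrambled control replicate 2 to 11073098 in RBMS1 knockdown replicate 3. Levels are given as CPM, the count of a gene normalized to the TMM-adjusted total of its library. A count of 0 in a sample allows a level of up to 0.220 to 1.49 CPM (3 counts), which covers counting error only. Scrambled control replicate 2 was also set apart by its genes derived from ribosomal RNA, which took 43.0% of its counts against 8.12% to 17.8% in the other 5 samples. RBMS1 knockdown replicate 1 stood apart in 8 fibroblast and preadipocyte markers, whose summed level was 3285 CPM against 6051 to 7353 CPM in the other 5 samples. All 8 adipocyte markers were detected in every sample, with a summed level of 20713 to 24211 CPM in the controls, 19582 CPM in knockdown replicate 1 and 10812 and 12684 CPM in knockdown replicates 2 and 3. Among the 8 fibroblast and preadipocyte markers, 4 (Pdgfra, Dcn, Lum and Dlk1) were lower in all 3 knockdown samples than in every control, as were 2 of the 8 adipocyte markers (Cebpa and Lpl) and 9.55% of all tested genes. The fibroblast and preadipocyte sum is carried mainly by Col1a1 and Col3a1. The labels give the cell type as fibroblast, and both marker sets were present. Of the 8 fibroblast and preadipocyte markers, 7 had a log2 fold change below 0 and 1, Lum, was called (−1.92, adjusted p = 0.0333 by edgeR's quasi-likelihood test, Benjamini-Hochberg adjusted), while all 8 adipocyte markers lay below 0 with adjusted p of 0.319 to 0.815 in the same test. Of the marker lists of other cell types, 2 of 5 macrophage and leukocyte genes, 1 of 4 endothelial, 3 of 4 skeletal muscle, 2 of 6 osteoblast and chondrocyte and 2 of 4 epithelial genes had no count in any sample, among them Ptprc, Kdr, Myod1 and Epcam. The summed levels over the 6 samples were 1.37 to 3.26 CPM for the macrophage and leukocyte list, 0.172 to 1.98 for the endothelial list, 19.3 to 33.3 for the muscle list (all of it Des), 41.5 to 62.9 for the osteoblast and chondrocyte list (chiefly Sox9 and Alpl) and 0.495 to 5.31 for the epithelial list. Krt18 of the epithelial list was at 0.320 to 0.687 CPM in the controls and at 5.31, 4.55 and 0.220 CPM in knockdown replicates 1, 2 and 3. Cd68 of the macrophage list was at 0.687 to 2.48 CPM in the controls and 1.76 to 3.26 CPM in the knockdown, with overlap. The part of these markers in the levels below was not tested. Rbms1 itself was measured at 113, 101 and 99.4 CPM in the controls and at 49.0, 61.2 and 83.8 CPM in the knockdown. Its log2 fold change was −0.69 (SE 0.20, n = 3 per group, adjusted p = 0.185 by edgeR's quasi-likelihood test, Benjamini-Hochberg adjusted), and the groups did not overlap although Rbms1 was not called. Without knockdown replicate 3 it was called at −0.92 (adjusted p = 0.0708 in the same test). With any other single sample left out it was not called, and it was at −0.52 without knockdown replicate 1 (adjusted p = 0.155 in that test).

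Chrdl1 (ENSMUSG00000031283, chromosome X, 143285674 to 143394262 in GRCm38, minus strand) was measured at 91.9, 95.5 and 110 CPM in scrambled control replicates 1, 2 and 3. In RBMS1 knockdown replicates 1, 2 and 3 it was measured at 23.4, 21.3 and 22.0 CPM. Each knockdown sample lay far below each control, and the 3 knockdown samples lay close together. The mean was 99.1 ± 9.47 CPM (SD, n = 3) in the controls and 22.3 ± 1.03 CPM (SD, n = 3) in the knockdown, 4.45-fold lower, with a log2 fold change of −2.15 (SE 0.15). These levels rest on 575, 193 and 640 estimated counts in the controls and 163, 183 and 301 in the knockdown. The coefficient of variation of Chrdl1 was 9.55% over the controls and 4.64% over the knockdown samples, a closeness that belongs to what Chrdl1 was chosen for. Per kilobase of exon, the control level of 14.7 CPM was above that of 79.6% of tested genes, and the knockdown level was 3.29 CPM.

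Across all tested genes, 140 (1.22%) reached an adjusted p of 0.1 or less and 104 (0.909%) did so with lower levels in the knockdown, leaving 36 higher. With library sizes alone the split was 42 lower and 84 higher. Of the 9 listed genes, 1 was among them, which follows from the choice of Chrdl1. The groups did not overlap, with the knockdown lower, for 1092 of the 11440 tested genes (9.55%), and Chrdl1 and Fst were among these. Since cultures were sequenced whole, a smaller number of cells making a transcript and less of that transcript per cell cannot be told apart.

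**Figure D1:**
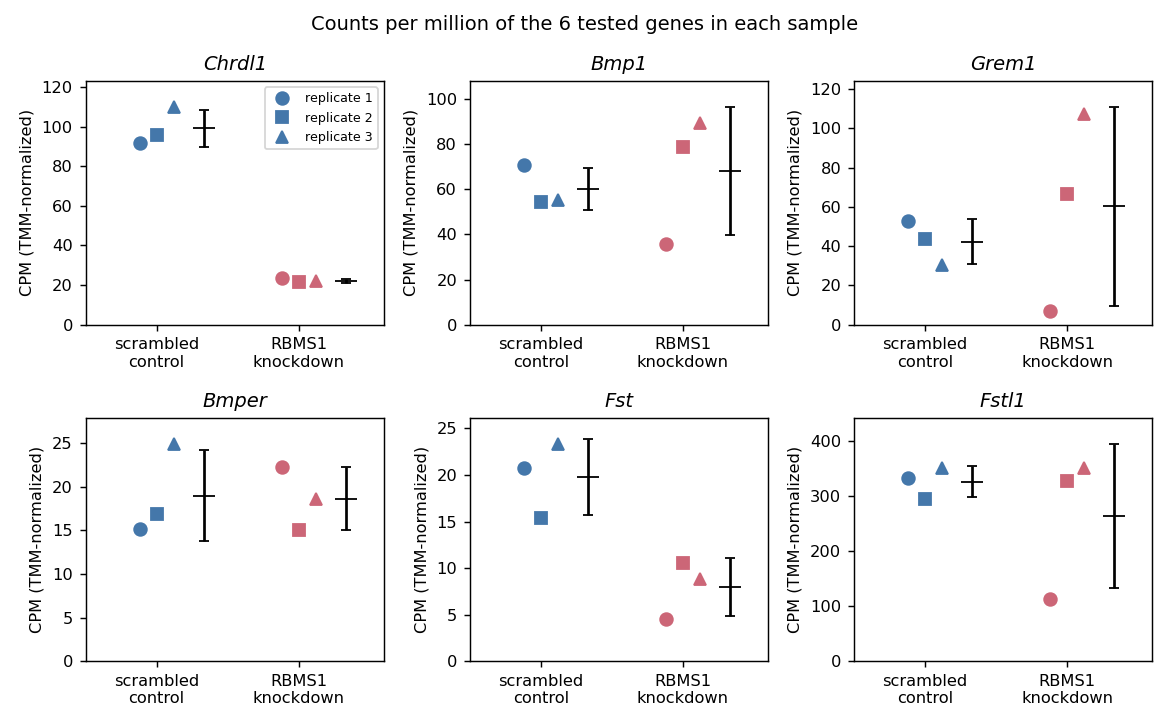
Level of the 6 listed genes that passed the filter, in TMM-normalized CPM (y axis, from 0), in 3 scrambled control samples (blue) and 3 RBMS1 knockdown samples (red), with the marker shape giving the replicate number and the black bars the mean and SD. Chrdl1 lies at 91.9 to 110 CPM in the controls and at 21.3 to 23.4 CPM in the knockdown, whereas Grem1 runs from 6.88 to 107 CPM within the knockdown samples.

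The other chordin-repeat protein of the list is BMPER, a secreted protein that can hold back or promote BMP signaling depending on its context. Bmper (ENSMUSG00000031963, chromosome 9, 23223076 to 23485200) was measured at 15.2, 16.8 and 24.9 CPM in the controls and at 22.2, 15.0 and 18.6 CPM in the knockdown. The groups overlapped, with the highest sample a control and the lowest a knockdown sample. Its means were 19.0 ± 5.19 and 18.6 ± 3.59 CPM (SD, n = 3 each), and the log2 fold change was −0.03 (SE 0.25) but 0.33 with library sizes alone, a scaling that moved the median of all tested genes to 0.37. Both Chrdl1 and Bmper encode the repeats printed above, and their log2 fold changes of −2.15 and −0.03 stand side by side without a test. Beyond the listed genes the pattern was also present, since 7 of the 67 pathway genes searched held it, Chrd with 4 stretches among them.

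Follistatin, the product of Fst, binds activins tightly and several BMPs more weakly. Fst (ENSMUSG00000021765, chromosome 13, 114452290 to 114458951) was measured at 20.8, 15.3 and 23.3 CPM in the controls and at 4.59, 10.6 and 8.86 CPM in the knockdown. Every knockdown sample was below every control, and knockdown replicate 1 was the lowest. The means were 19.8 ± 4.08 and 8.02 ± 3.10 CPM (SD, n = 3 each), 2.48-fold lower in the knockdown, with a log2 fold change of −1.31 (SE 0.32). Without knockdown replicate 1 it was −1.03.

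Follistatin-like 1, encoded by Fstl1, is a secreted glycoprotein of mesenchymal cells that can bind BMP4, and it was the most abundant of the 9 genes. Fstl1 (ENSMUSG00000022816, chromosome 16, 37776873 to 37836514) was measured at 333, 296 and 351 CPM in the controls and at 114, 328 and 352 CPM in the knockdown. Knockdown replicate 1 alone was low, and the other 2 knockdown samples lay within or just above the control range. The log2 fold change was −0.30 (SE 0.35) with all samples and 0.06 without knockdown replicate 1. With library sizes alone it was 0.07, which was −0.31 relative to the median of all tested genes under that scaling (0.37).

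Gremlin 1, the product of Grem1, is a cystine-knot antagonist that binds BMP2, BMP4 and BMP7. Grem1 (ENSMUSG00000074934, chromosome 2, 113746164 to 113758646) was measured at 52.9, 43.6 and 30.5 CPM in the controls and at 6.88, 66.5 and 107 CPM in the knockdown. The knockdown samples lay on both sides of the controls, with replicate 1 below all of them and replicates 2 and 3 above all of them. The means were 42.3 ± 11.2 and 60.2 ± 50.5 CPM (SD, n = 3 each). The log2 fold change was 0.51 (SE 0.69), 1.05 without knockdown replicate 1 and −0.20 without knockdown replicate 3, so its direction depended on which sample was kept.

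BMP1 is, despite its name, a tolloid proteinase that trims procollagens and cuts chordin. Bmp1 (ENSMUSG00000022098, chromosome 14, 70474558 to 70520234) was measured at 70.7, 54.5 and 55.3 CPM in the controls and at 35.8, 78.6 and 89.5 CPM in the knockdown. As for Grem1, knockdown replicate 1 was below all controls and knockdown replicates 2 and 3 were above all of them. The log2 fold change was 0.18 (SE 0.30), 0.49 without knockdown replicate 1 and −0.07 without knockdown replicate 3.

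Knockdown replicate 1 was thus the lowest of the 6 samples for Fst, Fstl1, Grem1 and Bmp1, and it was also the lowest in Rbms1 and in the summed fibroblast and preadipocyte markers. Relative to the control mean on the log2 scale, it lay at −2.11 for Fst, −1.52 for Fstl1, −2.62 for Grem1, −0.75 for Bmp1, −1.05 for those markers and −1.09 for Rbms1. For Chrdl1 it lay at −2.08, beside −2.22 and −2.17 in knockdown replicates 2 and 3, and for Bmper it lay at 0.23. The part of the marker and Rbms1 differences in the levels of Fst, Fstl1, Grem1 and Bmp1 was not tested. The log2 fold change of Chrdl1 was −2.18 without knockdown replicate 1.

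**Figure D2:**
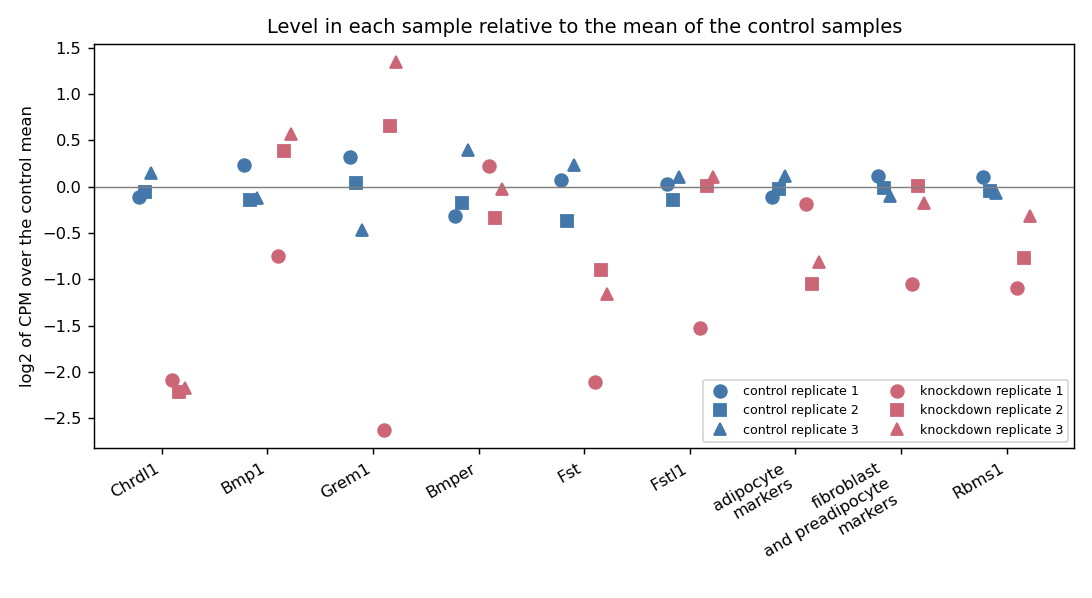
Log2 of each sample's CPM over the mean of the 3 control samples (y axis) for the 6 listed genes, the summed adipocyte markers, the summed fibroblast and preadipocyte markers, and Rbms1, with control samples in blue and knockdown samples in red and the shape giving the replicate number. Knockdown replicate 1 (red circle) lies lowest for Fst, Fstl1, Grem1, Bmp1, Rbms1 and the fibroblast and preadipocyte markers, while the 3 knockdown samples lie between −2.22 and −2.08 for Chrdl1.

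The ligands Bmp2 and Bmp4 were at or under the limit of detection. Bmp2 (ENSMUSG00000027358, chromosome 2, 133552159 to 133562885) had 0, 0 and 3 counts in the control samples and none in the knockdown samples. Bmp4 (ENSMUSG00000021835, chromosome 14, 46383520 to 46390669) had 3, 1 and 1 counts in the control samples, again with none in the knockdown samples. With so few counts no fold change is given, and a difference was not tested. Pooled over each group, Bmp4 was at 0.355 CPM (95% exact Poisson interval 0.115 to 0.828) in the controls and 0 CPM (0 to 0.126) in the knockdown. Bmp2 was at 0.213 CPM (0.0439 to 0.622) and 0 CPM (0 to 0.126). For both genes the intervals overlap and cover counting error only. BAMBI resembles a type I receptor without a kinase and dampens BMP and TGF-β signaling. Bambi (ENSMUSG00000024232, chromosome 18, 3507923 to 3516404) had 7, 1 and 10 counts in the control samples and 7, 5 and 5 counts with the knockdown. Pooled over each group this is 1.28 CPM (95% exact Poisson interval 0.757 to 2.02) and 0.582 CPM (0.339 to 0.932), intervals that overlap and that cover counting error only.

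The mean control levels of the 6 listed genes that passed the filter, per kilobase of exon so that genes can be compared, ran from 66.5 CPM for Fstl1 through 14.7 for Chrdl1, 10.2 for Grem1, 6.78 for Bmp1 and 4.32 for Fst to 3.92 for Bmper. By knockdown means the order of the 6 was Fstl1 (53.8), Grem1 (14.5), Bmp1 (7.66), Bmper (3.85), Chrdl1 (3.29) and Fst (1.75). Fst and Bmper in the controls, and Grem1 and Bmp1 as well as Bmper and Chrdl1 in the knockdown, differed by less than the larger SD of the pair, while the other neighbours in these orders lay further apart than that.

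**Figure D3:**
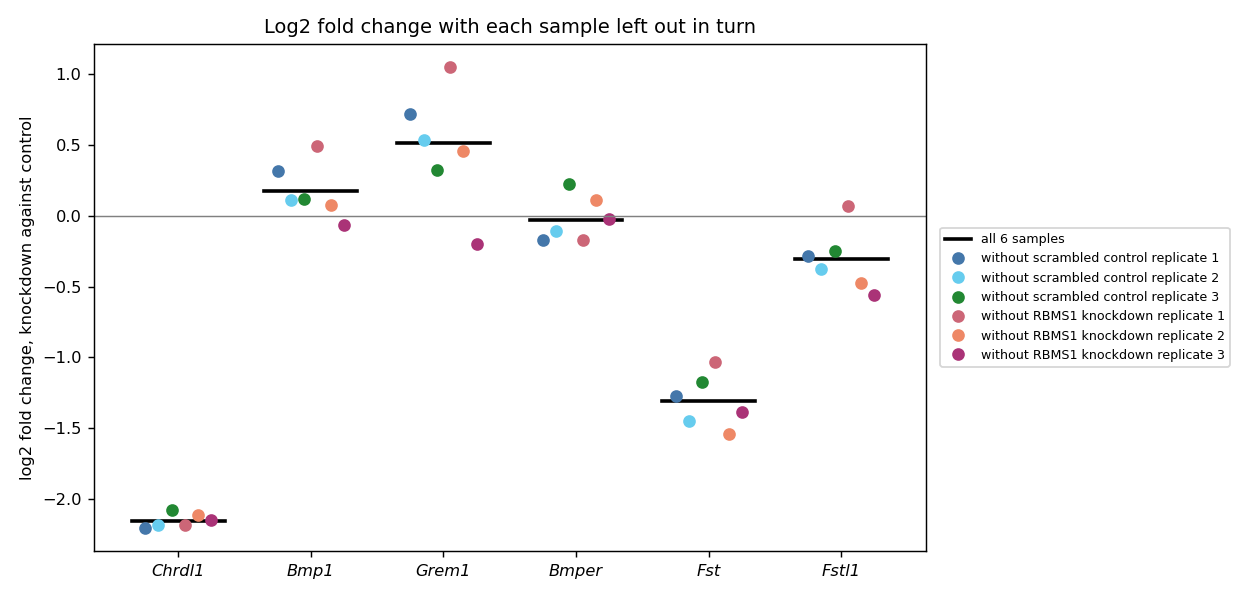
Log2 fold change of the knockdown against the control (y axis) for the 6 listed genes, with all 6 samples (black line) and after removal of each single sample (points). Chrdl1 stays between −2.20 and −2.07, Fst lies between −1.54 and −1.03, and Grem1 runs from −0.20 without knockdown replicate 3 to 1.05 without knockdown replicate 1.

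The rest of the pathway was read from 6 lists holding 68 genes, the 9 listed genes included. Of the 68, 51 had at least 1 count and 35 were tested. Among the 59 genes other than the 9, 29 were tested, 0 were called by edgeR or by DESeq2, and 3 (Chrd, Bmpr2 and Rgma) had an unadjusted p under 0.05, as had 1422 of all 11440 tested genes (12.4%). Of these 29, 12 had a log2 fold change below 0 and 17 above it, with a median of 0.03 beside 0.00 over all tested genes. Without knockdown replicate 1, Rgma was among the genes called, at −0.73 on the log2 scale (adjusted p = 0.0773 by edgeR's quasi-likelihood test, Benjamini-Hochberg adjusted), but it was at −0.32 without knockdown replicate 3. With library sizes alone it was at −0.13, which was −0.50 relative to the median of all tested genes under that scaling.

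Among the ligands, 8 of 15 genes had no count and 1, Gdf5, was tested. Gdf5, a joint-forming growth factor of the BMP family, was measured at 17.7, 12.9 and 14.9 CPM in the controls and at 18.1, 8.86 and 19.5 CPM in the knockdown. Its groups overlapped, and its log2 fold change was 0.02 (SE 0.30, adjusted p = 0.988 by edgeR's quasi-likelihood test, Benjamini-Hochberg adjusted). After Gdf5 at 6.61 CPM per kilobase over all samples, the next ligand by level was Bmp4 at 0.0850 CPM per kilobase.

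Of the 19 antagonists and modulators, 11 were tested, 8 of these had a log2 fold change below 0, and the median was −0.08. The count below 0 was 10 without knockdown replicate 3, 5 without knockdown replicate 2 and 4 with library sizes alone, and the median relative to that of all tested genes was −0.56, 0.02 and −0.13 in the same order. Chrd, which encodes chordin, was measured at 13.6, 7.43 and 8.92 CPM in the controls and at 6.02, 6.41 and 6.22 CPM in the knockdown. Like Chrdl1 and Fst it did not overlap between the groups, but its log2 fold change of −0.70 (SE 0.28) did not pass (adjusted p = 0.351 by edgeR's quasi-likelihood test, Benjamini-Hochberg adjusted) and was −0.40 without control replicate 1. Twsg1, whose product binds chordin and BMPs, was second to Fstl1 in its list by level per kilobase over all samples. It was measured at 93.5 ± 16.8 and 91.3 ± 14.6 CPM (SD, n = 3 each), and its log2 fold change was −0.04. Noggin, encoded by Nog, had 0, 0 and 1 counts in the control samples and 1, 7 and 25 counts in knockdown replicates 1, 2 and 3, and was not tested.

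The tolloid list held 3 proteinase genes and Pcolce, and Bmp1 and Pcolce were tested. Pcolce, which encodes an enhancer of procollagen cleavage by BMP1, was measured at 223 ± 47.2 CPM in the controls and 186 ± 59.2 CPM in the knockdown (SD, n = 3 each), a log2 fold change of −0.26 (SE 0.25) that ran from −0.48 without knockdown replicate 3 to −0.02 without knockdown replicate 1. Per kilobase over all samples Pcolce stood at 53.4 CPM and Bmp1 at 7.22 CPM.

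Of the 12 receptors and co-receptors, 7 were tested and 5 had a log2 fold change above 0. Bmpr2, the type II BMP receptor, was measured at 198, 172 and 180 CPM in the controls and at 261, 217 and 224 CPM in the knockdown. Every knockdown sample lay above every control, which also held for 1025 of all tested genes (8.96%), and the log2 fold change was 0.35 (SE 0.15, adjusted p = 0.374 by edgeR's quasi-likelihood test, Benjamini-Hochberg adjusted). Bmpr2 lies on chromosome 1, where 21.6% of tested genes had a log2 fold change below 0 (median 0.25), and with chromosome medians removed its own value was 0.11. The type I receptor Bmpr1a, the most abundant of the list per kilobase, was measured at 127 ± 17.5 and 138 ± 24.3 CPM (SD, n = 3 each). The co-receptor gene Rgma was measured at 101, 103 and 77.7 CPM in the controls and at 85.3, 64.6 and 48.7 CPM in the knockdown, with overlap (log2 fold change −0.51, SE 0.22).

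All 7 tested genes of the 8 SMADs and SMAD ubiquitin ligases had a log2 fold change above 0, while 49.6% of all tested genes lay below 0. The 7 stayed above 0 under the other library scalings. However, library sizes alone moved the median of all tested genes to 0.37, and 6 of the 7 lay above that median. Smad7 lay at 0.00 and fell below 0 with limma-voom, with the replicate block and with chromosome medians removed. With any 1 sample left out, 5 or 6 of the 7 stayed above 0. The highest value, 0.26 for Smad6, ran from 0.10 without knockdown replicate 3 to 0.39 without control replicate 1. None of the 7 was called by edgeR or by DESeq2, and 0 had an unadjusted p under 0.05. Of these genes Smad5, a receptor-activated SMAD, did not overlap between the groups (54.0 ± 3.11 and 62.3 ± 1.45 CPM, SD, n = 3 each). Smurf1 and Smurf2, ubiquitin ligases that mark SMADs for degradation, were the most abundant per kilobase and had log2 fold changes of 0.11 and 0.03.

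Of the 10 BMP target genes, 7 were tested, 5 had a log2 fold change below 0, and the median was −0.33. With all samples kept, 6 of 7 were below 0 with limma-voom and with the replicate block, at medians of −0.54 and −0.51 relative to all tested genes. Leaving out single samples gave a relative median of 0.10 without knockdown replicate 1 (3 of 7 below 0). It was −0.30 without knockdown replicate 2 (4 of 7 below 0) and −0.79 without knockdown replicate 3 (7 of 7 below 0). Without control replicates 1, 2 and 3 it was −0.08, −0.50 and −0.18. With library sizes alone 3 of 7 were below 0, but that scaling moved the median of all tested genes to 0.37, and the relative median was −0.37. Id1, a direct SMAD target, was measured at 48.0, 30.2 and 47.5 CPM in the controls and at 28.2, 32.6 and 60.8 CPM in the knockdown. Id3, another, was measured at 50.2, 24.8 and 38.3 CPM in the controls and at 9.61, 28.9 and 51.7 CPM in the knockdown. Both overlapped between the groups, and knockdown replicate 1 was the lowest of the 6 samples for both. The log2 fold changes were −0.05 (SE 0.30) for Id1 and −0.33 (SE 0.49) for Id3.

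**Figure D4:**
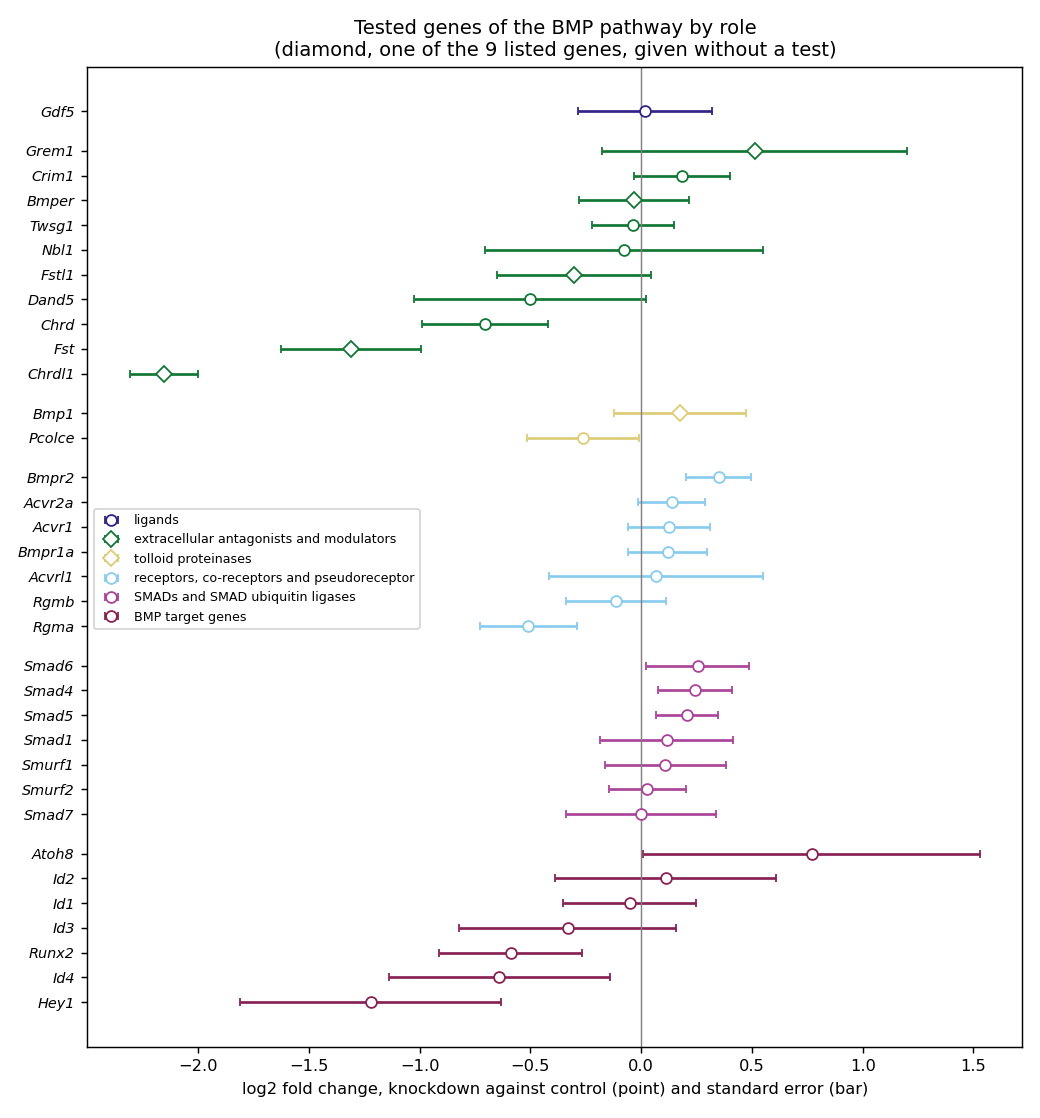
Log2 fold change of the knockdown against the control (x axis, point) with its standard error (bar) for 34 of the 35 tested genes of the BMP pathway lists, grouped by role. Diamonds mark the 6 listed genes that passed the filter, which were chosen with these values known and carry no test. Chrdl1 lies at −2.15 and Fst at −1.31, and the SMADs and SMAD ubiquitin ligases lie between 0.00 and 0.26 with all 6 samples.

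The genes whose levels over the 6 samples were most like those of Chrdl1 were found by the root mean square difference of log2 CPM, each gene centred on its own mean. The nearest was Col23a1, which encodes a transmembrane collagen, at a difference of 0.14. Col23a1 was measured at 13.8, 11.4 and 13.6 CPM in the controls and at 2.44, 2.22 and 2.78 CPM in the knockdown. It was followed by Tsnax (0.16), which encodes a partner of translin, Gstk1 (0.24), which encodes a glutathione transferase, Egfr (0.28), the epidermal growth factor receptor gene, and Ptprm (0.30), which encodes a receptor tyrosine phosphatase. Their log2 fold changes were −2.37, −2.13, −2.15, −2.08 and −1.81 in the same order, and being nearest to Chrdl1 they were bound to share its direction. Tsnax lies on chromosome 8, where 90.1% of tested genes had a log2 fold change below 0 (median −0.38). None of the 9 listed genes lies on that chromosome, and on chromosome X, where Chrdl1 lies, the median was 0.03 over 375 tested genes.

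Within 1 Mb of Chrdl1 on chromosome X lay 31 further genes, of which 10 had at least 1 count and 6 were tested. None of the 6 was called by edgeR's quasi-likelihood test or by DESeq2, and 1 had an unadjusted p under 0.05. The nearest was Pak3, a p21-activated kinase gene 124329 bases away, measured at 21.3, 23.8 and 22.0 CPM in the controls and at 14.2, 26.6 and 46.1 CPM in the knockdown. Its log2 fold change was 0.38, and those of the other 5 were 0.39 (Acsl4), 0.13 (Tmem164), 0.93 (Ammecr1), −0.33 (Capn6) and −0.40 (Alg13). Single samples moved several of these, with Alg13 at −0.02 without control replicate 1, Capn6 at −0.20 without knockdown replicate 2 and Acsl4 at 0.22 without knockdown replicate 1. For Ammecr1 every knockdown sample lay above every control (adjusted p = 0.319 by edgeR's quasi-likelihood test, Benjamini-Hochberg adjusted), as for 8.96% of all tested genes. Its log2 fold change was 0.65 without control replicate 2 and 1.16 without knockdown replicate 1, where it was called.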

How the data were processed

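RNA from 3 scrambled control and 3 RBMS1 knockdown cultures of differentiated 3T3-L1 cells was depleted of ribosomal RNA and sequenced from a stranded library. The submitters' processing notes name Trim Galore 0.6.7 for trimming, STAR 2.7.10a for alignment on GRCm38 and Salmon 1.9.0 for counting. The authors deposited Salmon's estimated counts as they were, with no normalization, so the share of a read that maps to several transcripts was already divided by the authors. Which annotation was used, and how transcripts were combined into genes, is not given in the sources used here. The authors tested for differences with DESeq2.

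Per sample, 3.97% to 7.78% of the 45706 gene entries, those with a count of 0 included, had a fractional part, and all were rounded here. The groups were compared with edgeR 4.0.16 under R 4.3.3 (glmQLFit and glmQLFTest after filterByExpr and TMM) with the condition as the only term, over 11440 genes, and called at a Benjamini-Hochberg adjusted p of 0.1 or less. The filter was passed by 6 of the 9 listed genes. Replicates differed beyond sampling noise, and none was counted as a duplicate. A permutation test of 3 against 3 cannot give a two-sided p below 0.1, so none was run. Positions, exon lengths and coding sequences came from a GENCODE M21 annotation of GRCm38. The alternatives used DESeq2 1.42.0, limma-voom (limma 3.58.1), other scalings and filters, unrounded counts, the replicate number as a block, removal of chromosome medians and each sample left out. The scripts were tested on simulated data.

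The listed genes, the pathway lists and the tests were chosen with earlier results of these data known. The genes named are the 9 listed genes, any called gene of the lists, the 2 genes of each list with the highest level per exon length, the 5 genes nearest to Chrdl1 in profile, the tested genes within 1 Mb of it, Rbms1 and the markers. Chrd, Bmpr2, Nog, Smad5, Smad6 and Smad7 fall outside this rule and were named after their values were seen. The values of 1 gene of the lists are not reported here, although the list counts include it.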

Additional observations from a re-analysis of the deposited data

How the results depend on the processing

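Against 140 genes called, 430 were called with DESeq2, 268 with no filter on low counts, 39 with the replicate block and 73 with chromosome medians removed, and 12 to 696 with each sample left out, the highest without RBMS1 knockdown replicate 1 and the lowest without scrambled control replicate 2. Of the BMP pathway lists 1 of 35 tested genes was called, beside 140 of all 11440 (1.22%). With DESeq2 2 were called beside 430 of 13454 genes, and with no filter 2 beside 268 of 19406. The added gene in both was Fst, a listed gene chosen with these values known. With each sample left out 1 to 5 were called. The 5 came without RBMS1 knockdown replicate 1, where 696 of 11724 genes were called. The cause of these differences in number was not tested. The numbers gave no sign of pairing. Deviations of same-numbered samples correlated at −0.14, 0.08 and −0.03, beside −0.17 to 0.21 for samples with different numbers. Weak correlations cannot show that the samples were unpaired. With the block Chrdl1 was at −2.15. With library sizes alone the median of all tested genes was at 0.37, the called genes split into 42 lower and 84 higher against 104 lower and 36 higher, and Chrdl1 was at −1.78, Bmper at 0.33, Fstl1 at 0.07, Twsg1 at 0.31, Pcolce at 0.12, Id1 at 0.30, Id3 at 0.0061 and Capn6 at 0.017. Relative to that median Chrdl1 was at −2.15 and Bmper at −0.04.

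Gdf5 was at −0.085 with limma-voom and −0.018 with the block, Smad7 at −0.048 with limma-voom, −0.11 with the block and −0.052 with chromosome medians removed, and Twsg1 at 0.046 with chromosome medians removed. Grem1 was at −0.08 with limma-voom. After removal of single samples, the log2 fold change ran from −2.20 to −2.07 for Chrdl1, −1.54 to −1.03 for Fst, −0.56 to 0.06 for Fstl1, −0.17 to 0.22 for Bmper, −0.07 to 0.49 for Bmp1 and −0.20 to 1.05 for Grem1. It also passed through 0 for Gdf5 (−0.18 to 0.31), Twsg1 (−0.18 to 0.10), Smurf1 (−0.32 to 0.31), Smurf2 (−0.13 to 0.13), Id1 (−0.46 to 0.16), Id3 (−0.97 to 0.10), Smad7 (−0.33 to 0.32), Tmem164 (−0.10 to 0.35) and Pak3 (−0.12 to 0.72), none of which was called in any of these comparisons. Gstk1 was not called in 4 of these 6 comparisons. Beyond these changes, the alternatives run kept the direction of the named genes that were tested, the markers not included, and the groups of 3 samples limit what a missed call can show.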
